A study of Mus musculus with 24 samples.

Results

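Of 37991 genes counted in the inguinal fat of 4 mouse strains, 45 were expressed in exactly 1 strain. A gene was taken when it reached 3 CPM (counts scaled to the library total) in all 3 standard-diet libraries of 1 strain and stayed below 0.5 CPM in all 9 standard-diet libraries of the other strains. CAST/EiJ held 35 of the 45 genes, WSB/EiJ 5, NZO/HiLtJ 4 and C57BL/6J 1. The standard-diet levels chose the genes, and between strains they are given as a description. The strain tests use the high-fat libraries, which come from other mice that the choice did not use, while the diet tests also use the standard-diet libraries.

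RNA was sequenced from subcutaneous inguinal fat of 24 female mice aged 26 weeks, with 3 mice for each of 4 inbred strains on each of 2 diets. CAST/EiJ and WSB/EiJ descend from wild mice, NZO/HiLtJ becomes obese and diabetic, and C57BL/6J is the common laboratory strain. The high-fat, high-sucrose diet had 45% of its energy from fat and 34% sucrose by weight, the standard diet had 17% of its energy from fat, and both started at 4 weeks of age. Libraries were made from poly(A) RNA and held 47651641 to 84009032 counts each, so that 3 CPM corresponded to 143 to 253 counts.

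Genes that are on in one inbred strain and off in others can differ in a promoter or enhancer, in the number of gene copies, or in whether a copy is present at all. A processed pseudogene is a DNA copy of a spliced messenger RNA that was inserted elsewhere in the genome, usually without a promoter of its own. Such copies closely resemble the gene they came from, so that short reads from the gene and the copy are hard to tell apart. The genome builds named in the submitters' processing notes, NCBIM37 and mm9, are the C57BL/6J reference; whether any other reference was used for the other strains is not given in the sources used here.

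Most members were pseudogenes, and how closely they resemble expressed genes can be read from the sequences. Gm12732 and Gm15032 are both copies of Rpl23, a ribosomal protein gene. The lines give a stretch of 60 bases from each annotated transcript (GENCODE M21, build GRCm38), positions 349 to 408 of Rpl23, within the coding sequence. Capitals mark bases of the pseudogene that differ from the coding gene.
Rpl23: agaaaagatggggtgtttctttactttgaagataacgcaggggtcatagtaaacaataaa
Gm12732: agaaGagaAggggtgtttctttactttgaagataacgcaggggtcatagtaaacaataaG
Gm15032: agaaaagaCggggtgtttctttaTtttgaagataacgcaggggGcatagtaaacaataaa
In this stretch Gm12732 and Gm15032 each differed from Rpl23 at 3 bases. The stretch was chosen for its differences. Among coding stretches of this length that both pseudogenes cover without a gap, none had more than 3 in both. Mir692-3, a microRNA hairpin gene of chromosome 13 that also met the rule, has the mature RefSeq sequence below (GRCm38.p6), with its seed in capitals.
Mir692-3: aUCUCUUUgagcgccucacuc
The libraries hold poly(A) RNA, so counts on this gene are reads over its locus and do not measure the mature microRNA.

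The libraries differed in cell content, and several stood apart. High-fat library 1 of CAST/EiJ had a summed level of 5 adipocyte markers of 27.3 CPM, against 4337 CPM or more in every other library. Its marker sums were 10480 CPM for smooth muscle, 4018 CPM for kidney, 824 CPM for epithelium and 609 CPM for the reproductive tract, the highest of all libraries for each. Its kidney sum was almost all Kap, at 4015 CPM, and the other kidney markers lay at 0.938 CPM or less there. The WSB/EiJ high-fat libraries held epithelial markers at 168 to 491 CPM. Their replicate 2 held brain markers at 2345 CPM, against 30.2 to 69.4 CPM elsewhere, and their replicate 3 held urothelial markers at 1132 CPM, against at most 27.0 CPM elsewhere. Standard-diet library 2 of CAST/EiJ held skeletal muscle markers at 3255 CPM, against at most 96.2 CPM elsewhere. Values without a library are given beside the results it moved most. In bulk tissue, fewer cells of a type and less RNA per cell cannot be told apart.

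**Figure D1:**
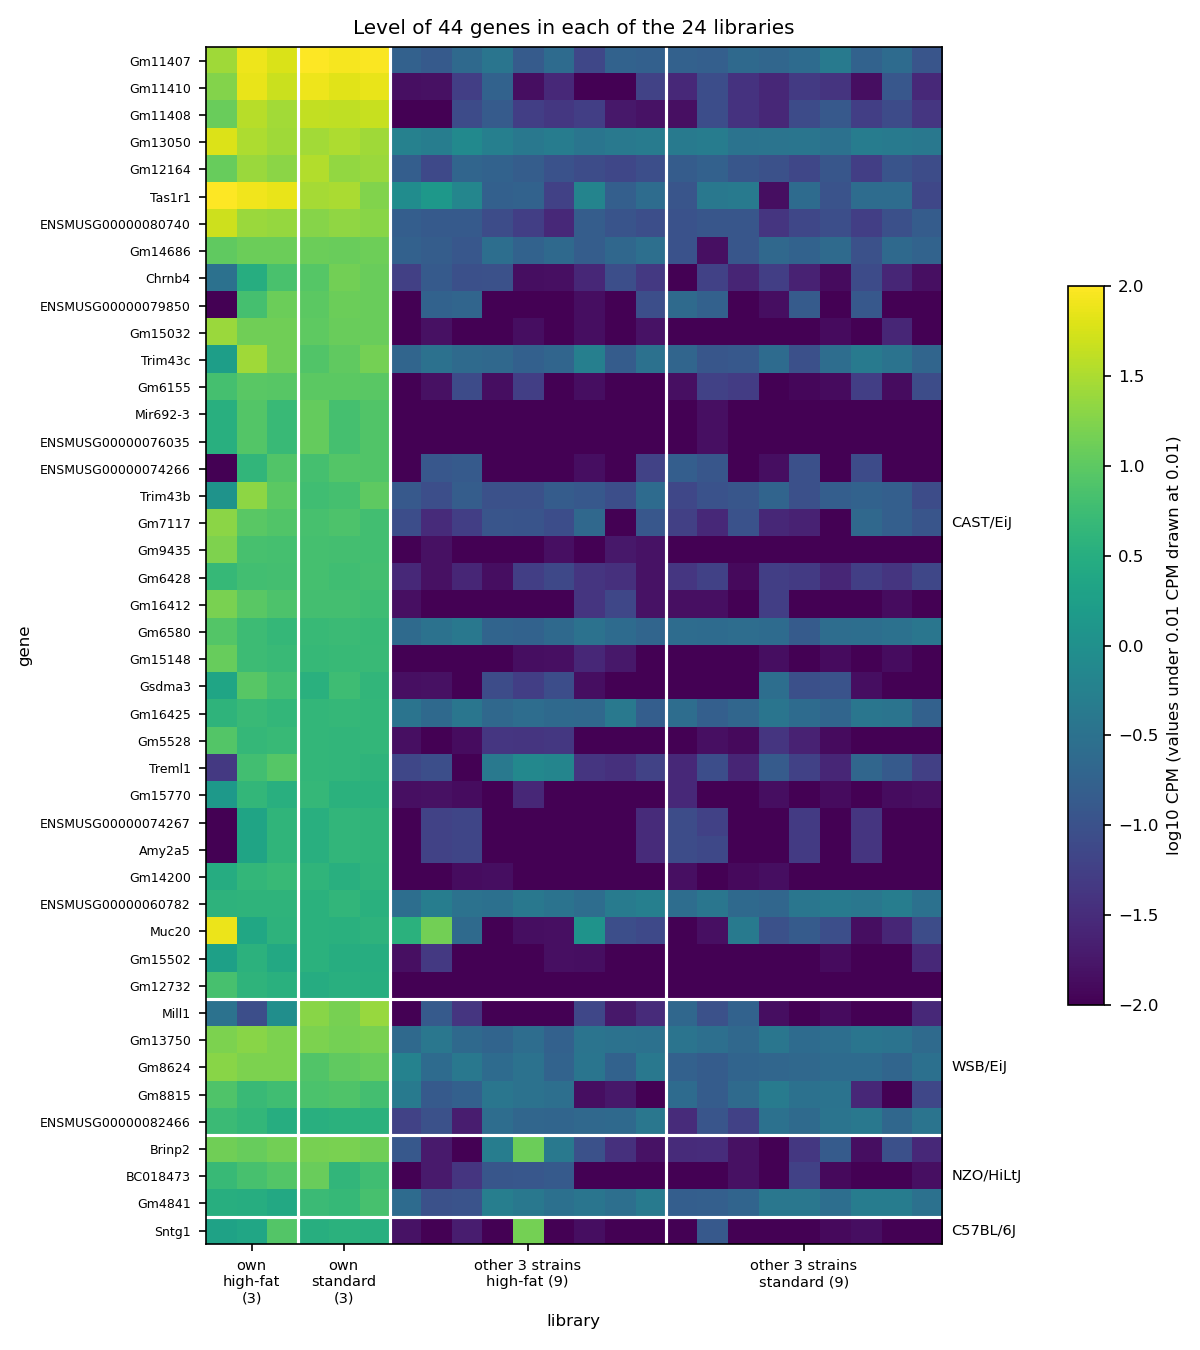
Level of 44 of the 45 genes (rows, grouped by the strain that expressed them) in the 24 libraries (columns), as log10 CPM. The 6 left columns are the own strain and the 18 right columns the other strains, high-fat before standard diet in each. Own-strain columns are mostly bright and the others mostly dark. Exceptions include Sntg1, Brinp2 and Muc20 in high-fat libraries of other strains. In the own strain, Mill1 is low in the high-fat libraries, and the amylase rows are dark in the first high-fat library of CAST/EiJ.

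By annotated class, 22 of the 45 genes (48.9%) were processed pseudogenes, a class that made up 5.42% of the 13159 genes at 3 CPM or more in every standard-diet library of at least 1 strain. Protein-coding genes were 13 of 45 (28.9%), against 89.3% of those genes. Another 7 members had identifiers with no gene name or entry in the annotation used, 2 were non-coding RNA genes (Mir692-3 and BC018473) and 1 was an unprocessed pseudogene (Gm8815). As these shares describe a list chosen on the same levels, no test was made of them.

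The shares of members also differed by strain. The 35 genes of CAST/EiJ were 0.297% of the 11795 genes at 3 CPM or more in that strain, the 5 of WSB/EiJ were 0.0431% of 11614, the 4 of NZO/HiLtJ were 0.0323% of 12366, and the single gene of C57BL/6J was 0.00814% of 12286. Processed pseudogenes were 20 of the 35 in CAST/EiJ and 2 of the 5 in WSB/EiJ, and none of the 4 in NZO/HiLtJ or of the 1 in C57BL/6J. Of the 29 CAST/EiJ members with an annotated chromosome, 6 lay on chromosome X, all of them processed pseudogenes, where 3.47% of the 11444 CAST/EiJ genes at this level with a chromosome lie.

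**Figure D2:**
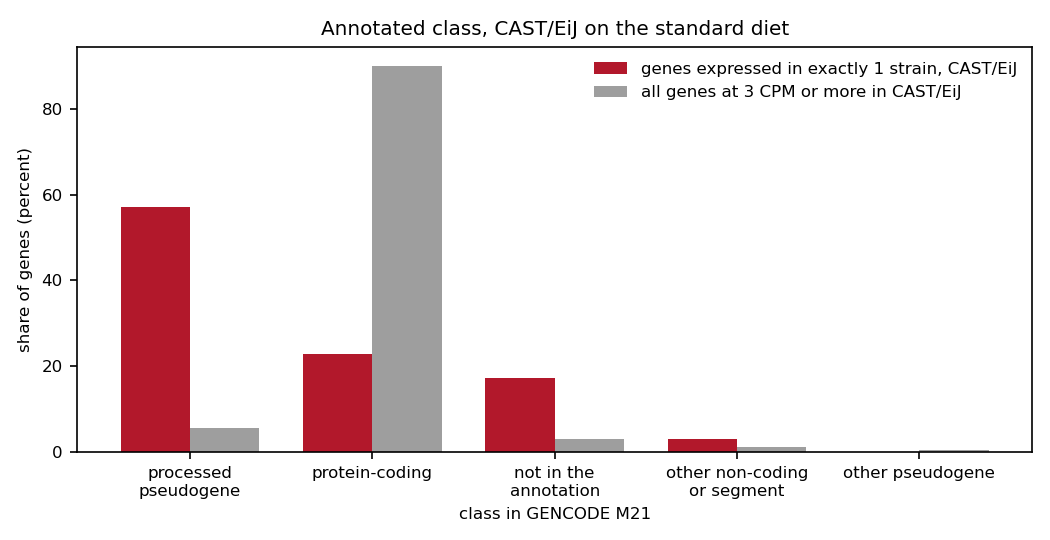
Share of genes by annotated class (percent), for the 35 genes expressed in CAST/EiJ but in no other strain (red) and for all 11795 genes at 3 CPM or more in the CAST/EiJ standard-diet libraries (grey). Processed pseudogenes are 57.1% of the first and 5.5% of the second.

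The members were 0.342% of the 13159 genes at 3 CPM or more in a strain, so that few or none would fall in most families at that share. The list held none of the 26 histocompatibility genes, 25 cytochromes P450, 23 serpins, 13 major urinary protein and secretoglobin genes, 280 zinc finger genes or 215 solute carriers that were expressed in a strain. It held 2 of 80 genes of the interferon-inducible and TRIM group, Trim43b and Trim43c. Predicted genes, named Gm and a number, were 24 of the 45, and 11 were named genes of other families.

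The thresholds cut through a continuous range. In CAST/EiJ the member nearest the floor was Gm12732, whose lowest library had 3.04 CPM, and the gene just below it was Gm5867 at 2.92 CPM. The member nearest the ceiling was ENSMUSG00000060782, at up to 0.493 CPM in other strains, and Serpina3e-ps lay just above it at 0.598 CPM. At the floor, the members and the genes outside were ENSMUSG00000082466 (3.30 CPM) and Adam28 (2.44 CPM) in WSB/EiJ, BC018473 (4.31 CPM) and Gsg1l (2.88 CPM) in NZO/HiLtJ, and Sntg1 (3.27 CPM) and Vwc2 (2.62 CPM) in C57BL/6J. At the ceiling they were Gm8815 (0.462 CPM) and Elovl7 (1.17 CPM), Gm4841 (0.479 CPM) and S100a8 (0.562 CPM), and Sntg1 (0.13 CPM) and Slc9b2 (0.502 CPM) in the same strains.

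The closest coding genes of all 22 processed pseudogenes were themselves expressed, at standard-diet means of 18.02 to 3082 CPM in the strain concerned. Of the 20 in CAST/EiJ, 6 were closest to genes of cytosolic ribosomal proteins (Rpl6, Rpl12, Rpl21, Rpl39 and, for 2 of them, Rpl23), 3 to genes of the mitochondrial genome, and 3 to the translation factors Eef2 and Eif1. The other closest genes were Mrpl12, a mitochondrial ribosomal protein, Tma7, Larp1, an RNA-binding protein, Sec61g, of the protein translocon, Senp3, a SUMO protease, Vdac1, the outer membrane channel of mitochondria, Emd, which encodes the nuclear envelope protein emerin, and Ftl1-ps1, a ferritin light chain copy annotated as protein-coding. Across all 22 processed pseudogenes, identity to the closest coding transcript ran from 85.96% to 100% with a median of 95.87%, and 13 reached 95%. Levels of these genes are therefore uncertain, since reads could be divided between copy and coding gene.

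On the standard diet the 3 highest members were neighbours on chromosome 4. Gm11407 had 27.2, 79.4 and 59.1 CPM in the CAST/EiJ high-fat libraries and 96.8, 89.2 and 94.8 CPM in its standard-diet libraries, against at most 0.353 CPM on the high-fat and 0.438 CPM on the standard diet in other strains. Gm11410 had 18.3, 74.0 and 47.9 CPM on the high-fat and 78.2, 67.1 and 72.5 CPM on the standard diet, against at most 0.184 and 0.123 CPM in other strains. Gm11408, between them, had 12.3, 37.6 and 27.9 CPM on the high-fat and 43.7, 42.1 and 46.9 CPM on the standard diet, against at most 0.141 and 0.133 CPM in other strains. For each of the 3, every CAST/EiJ library lay above every library of the other strains on the high-fat diet, and the rule had fixed this on the standard diet. Their closest coding genes, mt-Nd5, mt-Cytb and mt-Nd6, encode subunits of respiratory complexes and are neighbours in the mitochondrial genome too, and 7 and 74 bases lie between the annotated pseudogenes in GRCm38, with no annotated gene between them. This places the 3 members in 1 stretch of chromosome 4, so they are not independent examples. Processed pseudogene is their annotated class, and whether these 3 are copies of RNA or of mitochondrial DNA was not tested. Identity to the mitochondrial genes was 92.34%, 92.91% and 93.64% for Gm11407, Gm11410 and Gm11408.

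On the high-fat diet the difference was 8.28 ± 0.41 (log2, CAST/EiJ minus the mean of the other strains, ± SE) for Gm11407, with an adjusted p of 1.42e-06 by edgeR's quasi-likelihood test with Benjamini-Hochberg adjustment over 19038 genes. It was 10.34 ± 0.79 for Gm11410 (edgeR adjusted p = 1.89e-05). For Gm11408 it was 9.29 ± 0.70 (edgeR adjusted p = 1.84e-05).

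Several pseudogenes kept nearly the same ratio to their closest coding gene across the CAST/EiJ libraries. Gm11407 lay at 6.41% to 6.75% of the level of mt-Nd5 in the 6 CAST/EiJ libraries, although its own level varied 3.55-fold. Gm15770 lay at 13.4% to 14.0% of Mrpl12 while varying 3.3-fold, and Gm13050 at 4.56% to 4.87% of Eef2 while varying 2.29-fold. For 18 of the 20 pseudogenes the ratio varied less over the 6 libraries than the level did. The highest ratio was a median of 1.17 times the lowest, against 2.37 times for the level. Much of this contrast came with high-fat library 1. Over the 5 other libraries the ratio varied less for 13 of the 20, and the medians were 1.12 times for the ratio and 1.33 times for the level. Gm14686, 1 of those whose ratio varied more, lay at 14.2% of Emd in high-fat library 1 and at 22.98% to 25.1% in the other libraries. It lies within Emd on the same strand and is identical to it over its 343 bases, so reads of both cannot be told apart by sequence. Gm15502 lies within Cyp3a13 on the same strand. Gm6428, Gm14200 and Muc20 lie opposite the coding genes Fam178b, Ralgapb and Muc4, and reads of such pairs may also have been divided between them.

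**Figure D3:**
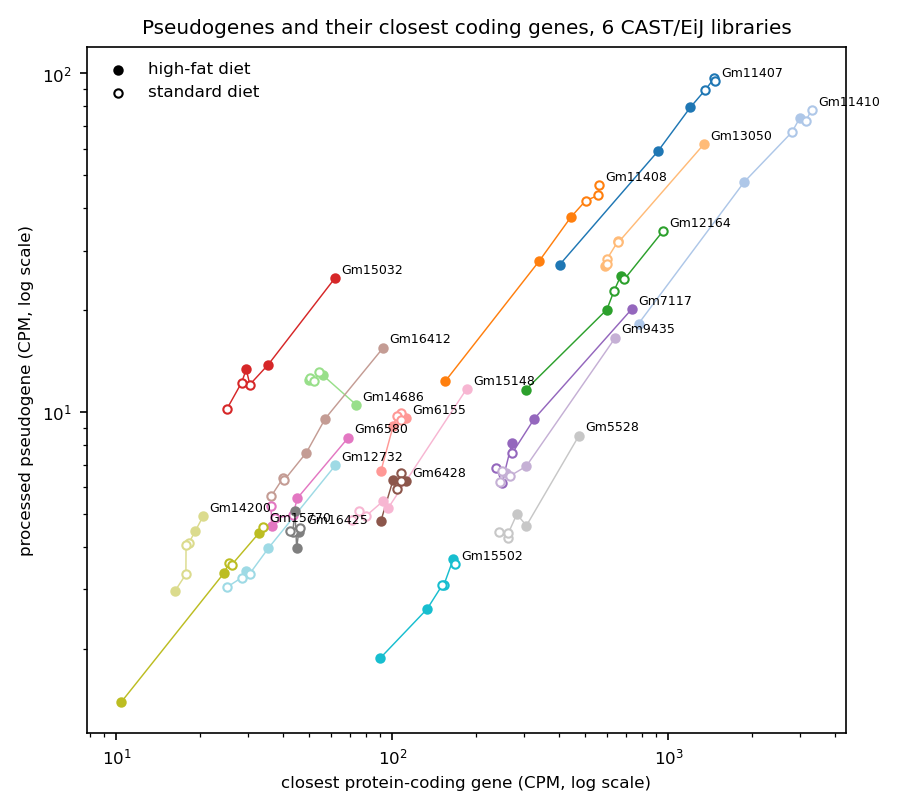
Level of each of the 20 CAST/EiJ processed pseudogenes (vertical axis) against that of its closest protein-coding gene (horizontal axis), in CPM on log scales, with 1 point per CAST/EiJ library and a line joining the libraries of a gene. Filled points are the high-fat and open points the standard-diet libraries. Most lines rise along the diagonal, so that pseudogene and coding gene were high and low in the same libraries.

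Some coding genes were themselves lower in CAST/EiJ. Rpl23 had 62.1, 35.5 and 29.5 CPM in the CAST/EiJ high-fat libraries, against 229 to 557 CPM in the other strains on that diet. On the standard diet it had 25.2, 30.4 and 28.4 CPM in CAST/EiJ, against 225 to 307 CPM in the others. The groups did not overlap on either diet, and the high-fat difference was -2.998 ± 0.29 (log2; edgeR adjusted p = 8.16e-05). In CAST/EiJ, Rpl23 and its pseudogenes Gm15032 and Gm12732 together made 94.0, 53.3 and 46.3 CPM on the high-fat and 38.5, 45.8 and 43.9 CPM on the standard diet. These sums were still below the lowest of the other strains, 229 CPM on the high-fat and 225 CPM on the standard diet.

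Gm15032 had 24.9, 13.8 and 13.4 CPM on the high-fat and 10.2, 12.1 and 12.2 CPM on the standard diet in CAST/EiJ, against at most 0.0154 and 0.0274 CPM in other strains. Gm12732 had 6.96, 3.96 and 3.40 CPM on the high-fat and 3.04, 3.34 and 3.24 CPM on the standard diet. It had 0 counts in all 18 libraries of the other strains. Set against 3 counts over the 9 other high-fat libraries, it was at least 972-fold higher in CAST/EiJ on that diet. That limit covers counting error only.

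The 20 pseudogenes had 18 distinct closest coding genes, and on the high-fat diet 5 of the 18 were called lower in CAST/EiJ, where 9.83% of all genes were, and 1 was called higher, where 9.71% of all genes were. Besides Rpl23 the lower ones were Eif1 (-1.09), Vdac1 (-0.97), Senp3 (-0.69) and Larp1 (-0.48), and Emd was higher (0.39, all log2, edgeR adjusted p of 0.0162 or lower). The median difference of the 18 was -0.19 and that of all genes 0.06. Ranges that did not overlap, with CAST/EiJ lower, were found for 6 of the 18 on the high-fat and 6 on the standard diet, against 7.04% and 13.1% of all genes. Whether reads from the coding genes were assigned to the pseudogenes in CAST/EiJ was not tested.

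Among the protein-coding members of CAST/EiJ, Tas1r1 was the highest on both diets. It encodes a subunit of the umami taste receptor. Tas1r1 had 188, 82.6 and 73.4 CPM in the CAST/EiJ high-fat libraries and 28.5, 31.5 and 17.6 CPM in the standard-diet libraries. In other strains it lay between 0.0587 and 1.36 CPM with high-fat feeding, and the standard diet gave at most 0.424 CPM. On the high-fat diet the lowest CAST/EiJ library was thus far above the highest of the others, and the rule had fixed that order on the standard diet. The high-fat strain difference was 8.29 ± 0.40 (log2; edgeR adjusted p = 1.37e-06). Its neighbouring coding genes Zbtb48 and Nol9 had 8.81 and 25.7 CPM on average in CAST/EiJ and 7.13 and 22.6 CPM in the other strains on the standard diet.

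Chrnb4, which encodes the beta-4 subunit of nicotinic acetylcholine receptors, had 0.313, 3.15 and 7.18 CPM on the high-fat and 8.88, 14.3 and 12.1 CPM on the standard diet in CAST/EiJ. Other strains had at most 0.138 and 0.0833 CPM. The 3 high-fat values of CAST/EiJ were spread widely but lay above all others, with a strain difference of 5.92 ± 0.76 (log2; edgeR adjusted p = 0.000486). An antisense gene, Gm47877, overlaps Chrnb4, and as strand use in counting is not given in the sources used here, their reads cannot be told apart.

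Trim43b and Trim43c encode closely related tripartite motif proteins and lie on chromosome 9 with 10 annotated genes between them. Trim43c had 1.72, 27.1 and 13.4 CPM on the high-fat and 8.35, 10.4 and 14.49 CPM on the standard diet in CAST/EiJ, against at most 0.531 and 0.43 CPM in other strains. Trim43b had 1.14, 20.7 and 9.65 CPM on the high-fat and 5.93, 6.56 and 10.1 CPM on the standard diet, against at most 0.247 and 0.196 CPM. Both were lowest in high-fat library 1 and highest in replicate 2. The transcripts are 97.24% identical, and Trim43c lay at 131% to 159% of Trim43b in the 6 libraries, so that their separate levels are uncertain. High-fat strain differences were 5.88 ± 0.59 and 6.40 ± 0.63 (log2; edgeR adjusted p = 0.000111 and 9.28e-05) for Trim43c and Trim43b.

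Amy2a5, a pancreatic amylase gene, moved together with 3 members that have no annotation. It had 0, 2.17 and 4.16 CPM on the high-fat and 3.29, 4.28 and 4.10 CPM on the standard diet in CAST/EiJ. The 2 diets overlapped, and other strains had at most 0.068 and 0.0862 CPM. In the 5 CAST/EiJ libraries other than high-fat library 1, the counts of ENSMUSG00000074267, ENSMUSG00000074266 and ENSMUSG00000079850 were 1, 2 and 3 times those of Amy2a5, within 0.01. All 4 had 0 counts in high-fat library 1, so they carry the information of 1 gene. Amy1, the best-scoring coding match, was 88.82% identical over 42.85% of the Amy2a5 transcript. Amy1 had 5.77, 297 and 438 CPM in the CAST/EiJ high-fat libraries and 419 to 520 CPM in its standard-diet libraries. At 95% identity or more over 100 bases or more, 5 genes matched the Amy2a5 transcript, so that the level of Amy2a5 is uncertain. The high-fat strain difference of Amy2a5 was 7.79 ± 1.42 (log2; edgeR adjusted p = 0.00708).

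Mir692-3 and the unannotated ENSMUSG00000076035 had equal counts in every library, with 3.30, 8.39 and 5.16 CPM on the high-fat and 11.4, 6.58 and 8.29 CPM on the standard diet in CAST/EiJ. The 9 other high-fat libraries had 0 counts, which puts CAST/EiJ at least 1144-fold higher, against 3 counts over those libraries. The Mir692-3 hairpin lies within Ftl1-ps1 and matches it over its whole length of 109 bases, and 11 other genes match it at 95% identity or more over 100 bases or more. Its level lay at 0.863% to 1.25% of that of Ftl1-ps1 in the CAST/EiJ libraries.

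Gsdma3, a gasdermin of the skin, had 2.27, 9.20 and 6.13 CPM on the high-fat and 3.51, 5.67 and 4.27 CPM on the standard diet in CAST/EiJ, against at most 0.088 and 0.28 CPM in other strains. Its high-fat strain difference was 8.39 ± 0.55 (log2; edgeR adjusted p = 8.61e-06). Treml1, a receptor of platelets, had 0.0469, 6.15 and 8.86 CPM on the high-fat and 4.39, 4.24 and 4.01 CPM on the standard diet, against at most 0.724 and 0.208 CPM. Muc20, a membrane mucin, had 76.9, 2.42 and 3.80 CPM on the high-fat and 3.57, 3.50 and 3.90 CPM on the standard diet, against at most 14.1 and 0.424 CPM. On the high-fat diet the ranges of Treml1 and Muc20 overlapped between CAST/EiJ and the other strains, which was not so for Gsdma3. High-fat library 1 of CAST/EiJ was the lowest CAST/EiJ library for Treml1 and the highest for Muc20. The high-fat strain difference was 5.52 ± 0.94 for Treml1 and 6.42 ± 1.25 for Muc20 (log2; edgeR adjusted p = 0.00279 and 0.00569). Without that library the difference of Muc20 was 3.47 (log2, edgeR adjusted p = 0.0416). Muc4, on the opposite strand, had 0.696 to 1197 CPM in CAST/EiJ and 0.0139 to 234 CPM in other strains on the high-fat diet. On the standard diet it had 0.573 to 0.875 CPM in CAST/EiJ and at most 1.68 CPM in other strains. Whether reads of Muc4 were counted for Muc20 was not tested.

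Across the 35 CAST/EiJ members, replicate 1 was the lowest of the 3 high-fat libraries for 23 and the highest for 12. Among the 8 protein-coding members it was lowest for 6 and highest for Tas1r1 and Muc20. Without it the high-fat strain differences were 6.47 for Chrnb4, 6.41 for Trim43c, 6.94 for Trim43b, 6.11 for Treml1 and 8.37 for Amy2a5 (log2), and all 5 were still called. This library had the low adipocyte and the high smooth muscle, kidney and epithelial marker sums given above, and the part of cell content in these levels was not tested.

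In WSB/EiJ the highest member on the standard diet was Mill1, a relative of the histocompatibility class I genes. In WSB/EiJ mice it had 0.318, 0.0917 and 0.938 CPM on the high-fat, against 19.5, 15.3 and 24.4 CPM on the standard diet. Other strains had at most 0.135 and 0.218 CPM. The high-fat values of WSB/EiJ lay under the 0.5 CPM ceiling in 2 of 3 libraries and overlapped with those of the other strains. The strain difference on the high-fat diet was 4.71 ± 0.96 (log2; edgeR adjusted p = 0.018), and 3.50 with an adjusted p of 0.069 without high-fat library 3 of WSB/EiJ, the library with urothelial markers at 1132 CPM.

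The other 4 members of WSB/EiJ were not named coding genes. Gm13750, closest to Ppia, which encodes cyclophilin A, had 15.99, 19.4 and 15.97 CPM on the high-fat and 16.3, 14.4 and 15.9 CPM on the standard diet in WSB/EiJ, against at most 0.387 and 0.378 CPM in other strains. Gm8624, closest to Rps23, a ribosomal protein gene, had 19.4, 16.01 and 16.1 CPM on the high-fat and 8.19, 10.7 and 11.9 CPM on the standard diet, against at most 0.594 and 0.301 CPM. Both lay far above the other strains on the high-fat diet, and the rule had fixed that order on the standard diet. Neither Ppia (-0.12) nor Rps23 (0.15) passed the high-fat strain test (log2, edgeR adjusted p = 0.654 and 0.684). On the standard diet Ppia had 1018 to 1042 CPM in WSB/EiJ, against 1131 to 1399 CPM in the other strains. Rps23 had 142 to 188 CPM against 155 to 205 CPM, which overlapped. Gm8815, at 84.39% identity to the histocompatibility gene H2-Q10, had 8, 5.10 and 5.90 CPM on the high-fat and 7.48, 7.82 and 6.30 CPM on the standard diet, against at most 0.422 and 0.462 CPM. H2-Q10 itself was higher in WSB/EiJ, at 343.5 to 576.5 CPM against 36.3 to 120 CPM on the high-fat diet. On the standard diet H2-Q10 had 601 to 751 CPM against 13.9 to 148 CPM. Gm8815 lay at 1.02% to 1.545% of H2-Q10 in the WSB/EiJ libraries, and whether reads were divided between them was not tested. ENSMUSG00000082466 had 5.27, 4.40 and 3.11 CPM on the high-fat and 3.30, 3.57 and 3.54 CPM on the standard diet, against at most 0.386 and 0.402 CPM.

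In NZO/HiLtJ the highest member on the standard diet was Brinp2, a gene of neurons. It had 13.4, 11.8 and 13.9 CPM on the high-fat and 15.1, 15.9 and 13.6 CPM on the standard diet in NZO/HiLtJ. Other strains had a median of 0.0978 CPM on the high-fat diet, but 12.8 CPM in replicate 2 of the WSB/EiJ group, the library with brain markers at 2345 CPM. The groups therefore overlapped in that library, and the difference was 5.86 ± 0.94 (log2; edgeR adjusted p = 0.00225). It was 6.95 without that library (edgeR adjusted p = 8.7e-05), and 9.42 without the 6 libraries with the epithelial marker Epcam at 5 CPM or more (edgeR adjusted p = 2.75e-05), which include all 3 WSB/EiJ high-fat libraries. The part of the brain transcripts in that value was not tested.

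The predicted gene Gm4841, on chromosome 18, had 3.26, 3.09 and 2.58 CPM on the high-fat and 5.401, 4.86 and 6.77 CPM on the standard diet in NZO/HiLtJ, against at most 0.52 and 0.479 CPM in other strains. BC018473, an antisense RNA gene on chromosome 11, had 4.88, 6.92 and 8.43 CPM on the high-fat and 12.2, 4.31 and 5.96 CPM on the standard diet, against at most 0.136 and 0.0588 CPM. Neither overlapped with the other strains on the high-fat diet, and the rule had fixed this on the standard diet.

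The single gene of C57BL/6J was Sntg1, a syntrophin found mainly in the brain. Sntg1 had 2.02, 2.36 and 8.38 CPM on the high-fat and 3.27, 3.59 and 3.30 CPM on the standard diet in C57BL/6J. Other strains reached 14.8 CPM with high-fat feeding, in replicate 2 of the WSB/EiJ group, and at most 0.13 CPM with the standard diet. The high-fat difference of 5.88 ± 1.64 (log2) did not pass, with an edgeR adjusted p of 0.0783. Without that library it was 9.59 and passed (adjusted p = 0.000681). It also passed by DESeq2 (adjusted p = 0.0194), in a fit of all 24 libraries (adjusted p = 0.00578) and without those 6 libraries (9.24, adjusted p = 0.000692).

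Taking the high-fat libraries as a whole, 44 of the 45 members were called higher in the strain that expressed them on the standard diet. These were 35 of 35 in CAST/EiJ, where 9.71% of 19038 genes tested were called higher, 5 of 5 in WSB/EiJ (8.45% of all genes), 4 of 4 in NZO/HiLtJ (11.6%) and 0 of 1 in C57BL/6J (3.49%). The 35 include members said above to share counts or a stretch of chromosome, such as Amy2a5 and the 3 identifiers, so they are not 35 independent genes. All 45 passed the filter on low counts, which used standard-diet values only. For members with counts in the other strains, differences ran from 3.41 for Gm4841 to 11.05 for Gm15032 (log2). Without high-fat library 1 of CAST/EiJ all 35 were still called, against 15.5% of all genes.

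A stricter reading, that every own-strain library lay above all 9 others on the high-fat diet, held for 29 of 35 members in CAST/EiJ (4.18% of all genes), 4 of 5 in WSB/EiJ (2.58%), 3 of 4 in NZO/HiLtJ (9.01%) and 0 of 1 in C57BL/6J (2.26%). In CAST/EiJ it held for all 20 processed pseudogenes and for 5 of the 8 protein-coding genes. The 6 that overlapped were Treml1, Muc20, Amy2a5 and the 3 identifiers that followed it. Without high-fat library 1 of CAST/EiJ, 34 of 35 members did not overlap (9.29% of all genes), with Muc20 as the exception. Own-strain levels stayed at 3 CPM or more in all 3 high-fat libraries for 22, 4, 3 and 0 members of CAST/EiJ, WSB/EiJ, NZO/HiLtJ and C57BL/6J. In CAST/EiJ it was 31 in the 2 libraries other than high-fat library 1.

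A level of 0.5 CPM or more in a high-fat library of another strain was found for 11 members. The highest were Sntg1, Muc20 and Brinp2, all in replicate 2 of the WSB/EiJ group, and Tas1r1 and Gm13050 also reached it. Muc20 also had 3.524 CPM in high-fat library 1 of WSB/EiJ and 1.131 CPM in high-fat library 1 of C57BL/6J. Tas1r1 had 0.895, 1.36 and 0.679 CPM in the WSB/EiJ libraries and 0.6425 CPM in high-fat library 1 of C57BL/6J. Gm13050 reached 0.788 CPM in WSB/EiJ, at 61.99, 31.97 and 27.03 CPM in CAST/EiJ. Treml1 reached 0.724 CPM in NZO/HiLtJ. Gm8624 (0.594 CPM), Trim43c (0.531 CPM), ENSMUSG00000060782 (0.525 CPM) and Gm4841 (0.52 CPM) were just above the ceiling.

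**Figure D4:**
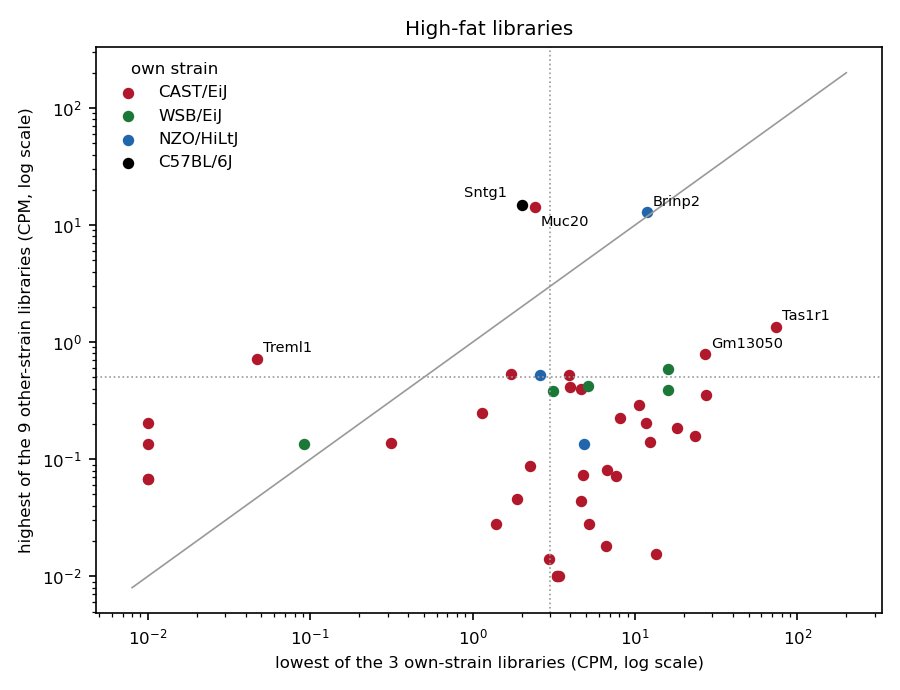
Lowest of the 3 own-strain libraries (horizontal axis) against the highest of the 9 libraries of other strains (vertical axis) on the high-fat diet, in CPM on log scales, values under 0.01 CPM drawn at 0.01. Points are 44 of the 45 genes, coloured by own strain, the line marks equality and dotted lines mark 3 and 0.5 CPM. The 35 points below the line are genes whose own-strain libraries all lay above the others.

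The same rule applied to the 12 high-fat libraries found 32 genes, of which 23 were among the 45. It found 22 in CAST/EiJ (19 shared), 3 in WSB/EiJ (3 shared), 7 in NZO/HiLtJ (1 shared) and 0 in C57BL/6J. Without high-fat library 1 of CAST/EiJ it found 41 genes, 31 of them shared, with 29 in CAST/EiJ (26 shared) and 5 in WSB/EiJ (4 shared).

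The diet itself was called for 2 members in the strain that expressed them, against 4.87% of 20035 genes in CAST/EiJ, 21.5% in WSB/EiJ, 4.89% in NZO/HiLtJ and 0.00998% in C57BL/6J. These shares depended on single libraries. Those left out, 1 at a time, were the strain's own libraries and high-fat library 1 of CAST/EiJ, not all 24. The shares then ran from 0.02% to 24.4% in CAST/EiJ (lowest without its standard-diet library 3, highest without its high-fat library 3). In WSB/EiJ they ran from 2.93% to 40.2% (lowest without its standard-diet library 1, highest without high-fat library 1 of CAST/EiJ). They ran from 1.42% to 11.9% in NZO/HiLtJ (lowest without its high-fat library 2) and from 0% to 0.11% in C57BL/6J. Because members had to reach 3 CPM on the standard diet, a fall on the high-fat diet is favoured by the choice. In WSB/EiJ Mill1, whose values are given above, fell by 5.71 ± 0.93 on the log2 scale (edgeR adjusted p = 0.00286, high-fat minus standard). The call held in all 12 alternative fits, at -6.90 to -5.23. Adipocyte markers summed to 4337 to 6230 CPM in the WSB/EiJ high-fat and 8779 to 10420 CPM in its standard-diet libraries. Smooth muscle markers were higher on the high-fat diet, at 1044 to 4958 CPM against 68.2 to 710 CPM. Epithelial markers had 168 to 491 CPM against 4.38 to 28.6 CPM. The reproductive tract sum was 117 to 127 CPM against 1.795 to 32.2 CPM. In high-fat library 3 of WSB/EiJ that sum was 125.8 CPM, of which the marker Wfdc2 made 124.1 CPM. The other markers of that list lay at 0.136 to 0.584 CPM there. The part of cell content in the change of Mill1 was not tested.

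Tas1r1 rose in CAST/EiJ by 1.94 ± 0.55 (log2; edgeR adjusted p = 0.0496), and its 3 high-fat libraries lay above its 3 standard-diet libraries. Without high-fat library 1 the change was 1.504 with an adjusted p of 0.21, and 4 of 12 alternative fits called it. Without that library 0.334% of all genes were called in CAST/EiJ.

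Other named members did not pass the diet test. Gm4841 stood at -0.96 ± 0.28 in NZO/HiLtJ (log2; edgeR adjusted p = 0.056), with high-fat and standard-diet libraries that did not overlap, and was called without high-fat library 1 of CAST/EiJ (adjusted p = 0.0118), a fit that called 11.9% of all genes in NZO/HiLtJ. Chrnb4 stood at -1.80 ± 0.81 (edgeR adjusted p = 0.154) and Gm11407 at -0.88 ± 0.37 (edgeR adjusted p = 0.13) in CAST/EiJ. At an unadjusted p under 0.05 there were 5 members in all. The share of all genes at that cut is not given here, so the number is not read as high or low. Muc20 had a difference of 2.62 ± 1.35 in CAST/EiJ (edgeR adjusted p = 0.203) that was -0.32 without replicate 1. The median diet difference of the 35 CAST/EiJ members was -0.07, with 16 above and 19 below 0, and that of all genes was 0.05 (log2).

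**Figure D5:**
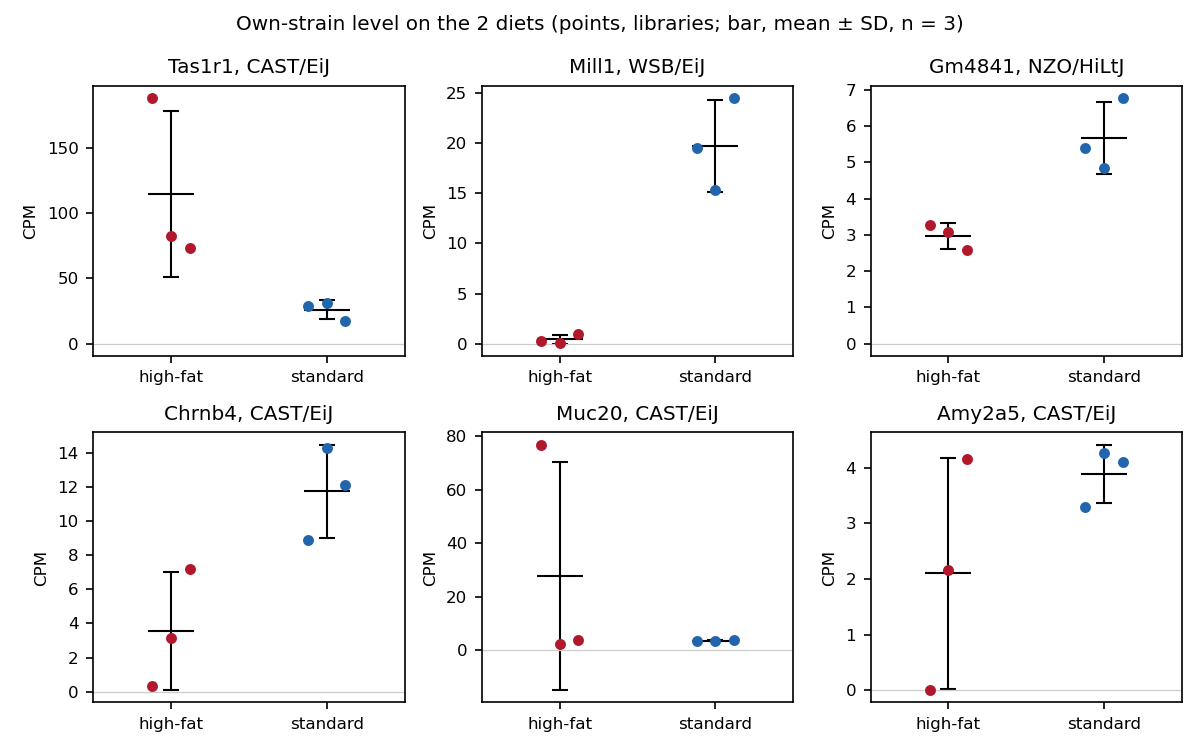
Own-strain level of 6 members on the high-fat and standard diet in CPM, with 1 point per library and bars for the mean ± SD (n = 3). Tas1r1 and Mill1 passed the diet test; Gm4841, Chrnb4, Muc20 and Amy2a5 did not. The first high-fat library of CAST/EiJ is the highest point for Tas1r1 and Muc20 and the lowest for Chrnb4 and Amy2a5.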

How the data were processed

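Expected counts per gene (whole numbers) of 24 poly(A) RNA libraries were deposited by the authors; the submitters' processing notes name RSEM 1.2.1, Bowtie 0.12.8 and CASAVA 1.8.0. An upper-quartile normalised table was not used. CPM here is the count over the library total. Members and gene lists were chosen with earlier results of these data known. Symbols, classes and neighbours come from GENCODE M21 (GRCm38), another build than the files', so no coordinates of the files are given. The closest coding gene was the best-scoring blastn 2.17.0 match of the member's transcript among protein-coding transcripts of counted genes. A match of higher identity over fewer bases can score lower.

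Tests used edgeR 4.0.16 (quasi-likelihood, TMM, filterByExpr, adjusted p below 0.05): the 12 high-fat libraries with genes filtered on the standard-diet libraries (19038 genes, 8 residual degrees of freedom), own strain minus the mean of the other 3; and all 24 libraries (20035 genes, 16 residual degrees of freedom), high-fat minus standard within a strain. Both fits were tested on simulated data. DESeq2 1.42.0, other scaling, filters and thresholds, and single libraries left out were alternatives. For the diet test of a strain, only its own libraries and high-fat library 1 of CAST/EiJ were left out. Replicate libraries are separate mice, per the labels, numbered in accession order. Named coding members came from a rule on standard-diet level; pseudogenes beyond the 2 highest per strain were named after their values were seen. Values of 1 member of NZO/HiLtJ are not reported here.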

Additional observations from a re-analysis of the deposited data

How the results depend on the processing

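The number of genes expressed in exactly 1 strain depended on both thresholds. A floor of 2 CPM gave 55 in CAST/EiJ, 7 in NZO/HiLtJ, 3 in C57BL/6J and 71 in all, and a floor of 5 CPM gave 21, 2, 0 and 27. A ceiling of 0.25 CPM gave 1 in WSB/EiJ and 2 in NZO/HiLtJ, and a ceiling of 1 CPM gave 10 in NZO/HiLtJ and 6 in C57BL/6J. Applied to the high-fat libraries the rule gave 22, 3, 7 and 0 in CAST/EiJ, WSB/EiJ, NZO/HiLtJ and C57BL/6J, and applied to all 24 libraries 19, 3, 1 and 0, which is 23 in all. Leaving out 1 standard-diet library gave 35 to 37 in CAST/EiJ, 5 to 6 in WSB/EiJ, 4 to 9 in NZO/HiLtJ (9 without replicate 3 of C57BL/6J) and 1 to 3 in C57BL/6J. On the high-fat diet the call of Sntg1 in C57BL/6J, 0 of 1, became 1 of 1 by DESeq2, in the fit on all 24 libraries, without high-fat library 2 of WSB/EiJ and without the 6 libraries in which Epcam reached 5 CPM, a setting chosen after seeing the data that leaves no WSB/EiJ high-fat library; with 1 library left out it was 0 to 1. For the diet in CAST/EiJ, 0 members were called higher with RLE size factors, in the fit on the 6 libraries of the strain, with no filter on low counts and without the 6 libraries; with 1 library left out 0 to 1 were called higher (0 without high-fat library 1 or any 1 standard-diet library) and 0 to 1 lower (Gm11407 without high-fat library 2, adjusted p = 0.0391, and Chrnb4 without replicate 3, adjusted p = 0.0338). In NZO/HiLtJ 1 member was called higher in the fit on the 6 libraries of the strain, and 1 was called lower in that fit, by DESeq2 and without the 6 libraries; with 1 library left out the number lower was 0 to 1. With 1 library left out, diet differences that had not passed lay on both sides of 0 for Trim43c (-0.64 to 0.78), Trim43b (-0.57 to 0.92), Gsdma3 (-0.22 to 0.69), Treml1 (-0.54 to 0.74), Muc20 (-0.32 to 3.15, and -0.32 without the 6 libraries) and Sntg1 (-0.63 to 0.73), with the turned sign without high-fat library 2 of CAST/EiJ for the first 3, its library 3 for Treml1, its library 1 for Muc20 and library 3 of C57BL/6J for Sntg1. DESeq2 gave Brinp2 no adjusted p, so it called 3 of 4 NZO/HiLtJ members. The counts of members and the ratios given without high-fat library 1 of CAST/EiJ were also chosen after seeing the data. The cause of these changes was not tested. No paired analysis was possible because the labels give no replicate numbers. With 3 mice a group, own-strain counts of 143 or more on the standard diet left the spread between mice as the main limit there. Other strains often had few counts, such as 0 for Gm12732 and 4 for Gm15032 over their 9 high-fat libraries. Counting error limits those strain differences too.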
